A study of Homo sapiens with 8 samples.

Results

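A group of 10 transcription regulator genes that set up the germinal centre B cell or end its programme were followed in the FLI1 peak lists of OCI-Ly1 and VAL: BCL6, MEF2B, MEF2C, FOXO1, IRF8, POU2AF1, PAX5, BACH2, IRF4 and PRDM1. They were chosen by function, as 10 of the 20136 protein coding genes of GENCODE release 44 on GRCh37. For each gene the best promoter peak was taken, meaning the listed peak with the highest -log10 q among those centred within 3 kb of any annotated transcription start site (TSS), together with every peak centred inside the gene that passed a -log10 q of 3, an FDR of 0.001.

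Both OCI-Ly1 and VAL are established cell lines of germinal centre B cell like (GCB) diffuse large B cell lymphoma, and the labels name no treatment or genetic change of the cells. The study asked where FLI1, a transcription factor of the ETS family, lies on chromatin in such cells. FLI1-bound DNA was isolated with a rabbit polyclonal antibody to FLI1 and sequenced, with 2 replicates in each line and 4 matching samples of input DNA. Nothing in the labels says that the 2 replicates of a line came from separate cultures, and each line stands for 1 tumour.

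The list of OCI-Ly1 replicate 1 held 37 intervals, 33 of them longer than 1 Mb, with a single passing interval on none of the chromosomes of the 10 genes, so it gave no site here. OCI-Ly1 replicate 2 listed 1107379 peaks with 5354 passing, VAL replicate 1 listed 237178 with 973 passing, and VAL replicate 2 listed 986629 with 6474 passing. The read totals of the libraries are unknown. The reads at a summit, inferred from the fold enrichment and the p-value of the peak, were 6 or more for each passing peak of OCI-Ly1 replicate 2 and of VAL replicate 2, and 8 or more for VAL replicate 1. The line OCI-Ly1 thus rests on its second replicate, called the OCI-Ly1 library from here on, and the replicates of VAL are called VAL-1 and VAL-2. VAL-1 had the shortest list of those used.

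Germinal centre B cells divide fast and edit their antibody genes before they leave as plasma cells or memory B cells. BCL6 is the repressor that holds cells in this state, with MEF2B, MEF2C, FOXO1, IRF8, the coactivator POU2AF1, PAX5 and BACH2 acting on the same side, while IRF4 and PRDM1 (the gene of BLIMP1) drive the exit to the plasma cell. ETS factors such as FLI1 bind DNA at a GGAA core, with CCGGAAA and CCGGAAG as favoured longer forms.

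The sequences below come from the passing sites of MEF2B, POU2AF1 and PAX5. They are read from GRCh37 on the plus strand, 5′ to 3′, while all 3 genes lie on the minus strand. Capitals mark CCGGAAA or CCGGAAG on either strand where the stretch has one, and otherwise GGAA or its reverse complement. The first pair is shown because both sites passed in all 3 libraries, the next because it was the highest of the sites that passed in 1 library, and the last pair because the PAX5 promoter passed at a different place in each line.
MEF2B promoter, chr19:19302949-19302977: gggaaacggcaCCGGAAGcccggaggttg
MEF2B 3′ end, chr19:19256976-19257004: gcccatccgtaCCGGAAGtgtgcgcagta
POU2AF1 intron, chr11:111317351-111317451: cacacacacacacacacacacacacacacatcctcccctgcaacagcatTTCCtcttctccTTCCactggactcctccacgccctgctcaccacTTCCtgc
PAX5 promoter site of OCI-Ly1, chr9:37029313-37029413: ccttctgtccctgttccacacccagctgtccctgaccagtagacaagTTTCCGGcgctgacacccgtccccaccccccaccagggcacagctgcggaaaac
PAX5 promoter site of VAL, chr9:37034812-37034912: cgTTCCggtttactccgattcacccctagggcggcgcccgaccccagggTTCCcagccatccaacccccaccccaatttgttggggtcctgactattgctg

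Of the 10 genes, 3 passed at a promoter in OCI-Ly1 (MEF2B, PAX5 and POU2AF1), as did 19.0% of all protein coding genes. In VAL-1 the genes were 2 (MEF2B and POU2AF1), beside 3.14% of all protein coding genes. VAL-2 had the same 3 genes as OCI-Ly1, beside 20.9%. The other 7 genes passed in no library, while 27.4% of all protein coding genes passed in at least 1. One gene more or less moves the share of such a short list by 10 percentage points, and 3 of 10 is near the background of OCI-Ly1 and VAL-2.

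Of the 10 genes, 3 passed in both cell lines, beside 12.6% of protein coding genes, and MEF2B and POU2AF1, 2 of them, passed in all 3 libraries, beside 2.74%. The 10 genes have 4 to 52 annotated TSS each and promoter windows of 6.039 kb (IRF4) to 77.86 kb (MEF2C). More sequence was searched for the genes with wide windows, while IRF4 had the least of the 10 despite its 5 TSS. Among the 14846 protein coding genes with 3 or more TSS the shares were 22.4%, 3.66% and 24.5% in OCI-Ly1, VAL-1 and VAL-2, with 14.9% in both lines, 3.19% in all 3 libraries and 32.3% in any.

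The median of the best -log10 q over the 10 genes was 1.61 in OCI-Ly1, 0.495 in VAL-1 and 1.71 in VAL-2. Over all protein coding genes the medians were 1.22, 0.183 and 1.64, and over those with 3 or more TSS they were 1.61, 0.183 and 1.71. The plot of the best promoter peaks by gene shows 2 genes far above the threshold, 1 next to it and the rest under it.

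**Figure D1:**
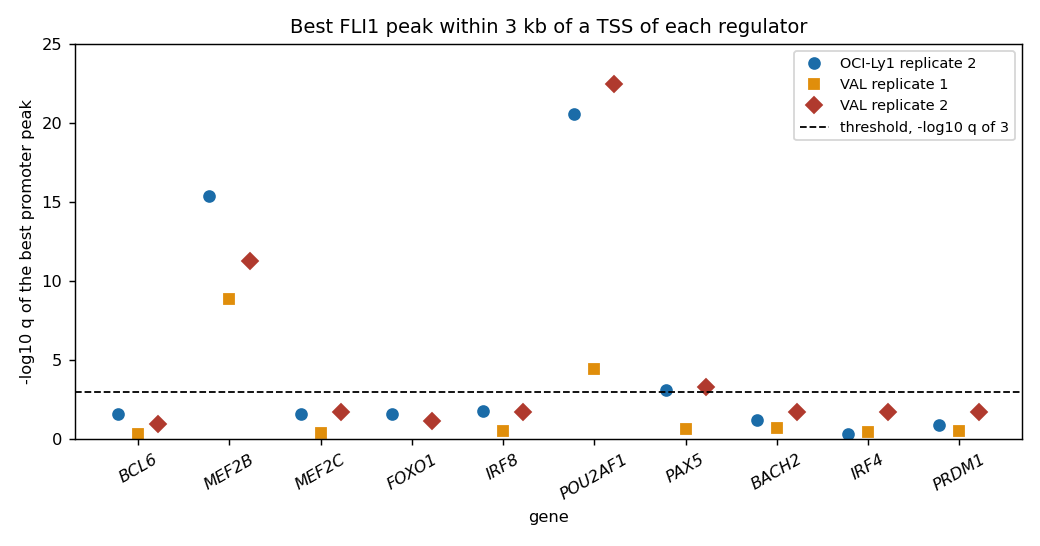
The -log10 q of the best FLI1 peak within 3 kb of a TSS is plotted for each of the 10 genes, with a circle for OCI-Ly1 (its replicate 2), a square for VAL-1, a diamond for VAL-2 (replicates 1 and 2 of VAL) and a dashed line at the threshold of 3. POU2AF1 reaches 20.6, 4.44 and 22.5 and MEF2B 15.4, 8.89 and 11.3, PAX5 passes narrowly in 2 libraries, and FOXO1 has no point for VAL-1 because no peak was listed there.

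POU2AF1 encodes OCA-B, the B cell coactivator that works with the octamer factors POU2F1 and POU2F2 and without which germinal centres do not form. The gene (ENSG00000110777, chr11:111222980-111326355, minus strand) had the highest promoter peak of the list in OCI-Ly1 and VAL-2. Its -log10 q was 20.6 in OCI-Ly1, 4.44 in VAL-1 and 22.5 in VAL-2, with fold enrichments over the local background of 12.1, 5.07 and 14.7. These values exceeded those of 98.5%, 97.9% and 98.7% of protein coding genes. The inferred reads at the summit were 25 in OCI-Ly1 (95% Poisson interval 16.2 to 36.9), 16 in VAL-1 (9.15 to 26.0) and 19 in VAL-2 (11.4 to 29.7). The 3 intervals overlap, and the lower -log10 q of VAL-1 goes with a local background of 2.35 reads, against 1.15 and 0.359 in the others. Such intervals, here and below, cover counting error only.

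The POU2AF1 summits fell within 22 bp of each other, 57, 58 and 79 bp upstream of the TSS at 111250000, where 3 of the 12 annotated transcripts start. No other gene had a TSS within 3 kb of the peak. The other TSS of the gene carried no passing peak within 3 kb, and the highest value at any of them was 2.9 in OCI-Ly1, just under the threshold, with 9 reads.

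MEF2B is a MADS box factor that activates BCL6 in germinal centre B cells and is mutated in lymphomas of this origin. The gene (ENSG00000213999, chr19:19256376-19302940, minus strand) passed in all 3 libraries at its upstream TSS. The -log10 q was 15.4 in OCI-Ly1, 8.89 in VAL-1 and 11.3 in VAL-2, above 97.2%, 99.1% and 95.6% of protein coding genes. The summits had 18 inferred reads (10.7 to 28.4), 23 (14.6 to 34.5) and 12 (6.2 to 21.0), over backgrounds of 0.717, 2.85 and 0.359. The 3 intervals overlap here too.

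This promoter is shared. The summits lay 75, 73 and 55 bp upstream of the MEF2B TSS at 19302940, which belongs to 1 of the 5 MEF2B transcripts, and the TSS of RFXANK, BORCS8 and the readthrough gene BORCS8-MEF2B were also within 3 kb. RFXANK encodes a subunit of the RFX complex of MHC class II promoters, and BORCS8 a subunit of the BORC complex of lysosome positioning. The nearest TSS was that of RFXANK at 19303038 in OCI-Ly1 and VAL-1, and that of BORCS8-MEF2B at 19302967 in VAL-2, 23 to 28 bp from the summits. All 3 summits fell in an untranslated exon of BORCS8. The other 4 MEF2B transcripts start between 19281057 and 19281098, where the best peak had a -log10 q of 1.19 in OCI-Ly1 and 0.952 in VAL-2, and none was listed in VAL-1. When a peak counted only for the gene of its closest TSS, MEF2B had no passing promoter peak in any library. The gene that this FLI1 site serves cannot be told from the lists.

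The CCGGAAG of the MEF2B promoter, at 19302960 to 19302966 on the plus strand, lay whole within 50 bp of the summit of VAL-2, its near edge 29 bp away, and only in part within 50 bp of the other summits. GGAA on the minus strand, at 19302995 to 19302998 and 19303029 to 19303032, lay within 50 bp of the summit in all 3 libraries. A second, weaker peak upstream of MEF2B, in an exon of RFXANK, lay at the threshold in VAL-2 with a -log10 q of 3.0 and 6 reads. It was listed at 1.89 with 5 reads in OCI-Ly1 and not listed in VAL-1.

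PAX5, which fixes B cell identity and is switched off in plasma cells, passed only narrowly. The gene (ENSG00000196092, chr9:36833266-37034265, minus strand) had a best promoter -log10 q of 3.13 in OCI-Ly1, 0.653 in VAL-1 and 3.29 in VAL-2. The reads were 6 (2.2 to 13.1), 8 (3.45 to 15.8) and 6 (2.2 to 13.1), over backgrounds of 0.374, 1.84 and 0.355, so both passing peaks had the fewest reads with which a peak passed.

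The PAX5 peaks of the lines were at different places. The OCI-Ly1 peak had its summit 2804 bp upstream of an internal TSS at 37026572, inside the gene, and CCGGAAA on the minus strand at 37029360 to 37029366, 10 bp from the summit. There VAL-2 listed 4 reads, with a -log10 q of 0.435. The peak of VAL-2 had its summit 602 bp upstream of the most distal TSS at 37034265, with GGAA on the minus strand 3 bp away, and there OCI-Ly1 listed 3 reads with a -log10 q of 0.344. VAL-1 listed no peak at either place. The read intervals of the lines overlap at both, at 2.2 to 13.1 against 1.09 to 10.2 and 2.2 to 13.1 against 0.619 to 8.77. A difference between lines was not tested here either.

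**Figure D2:**
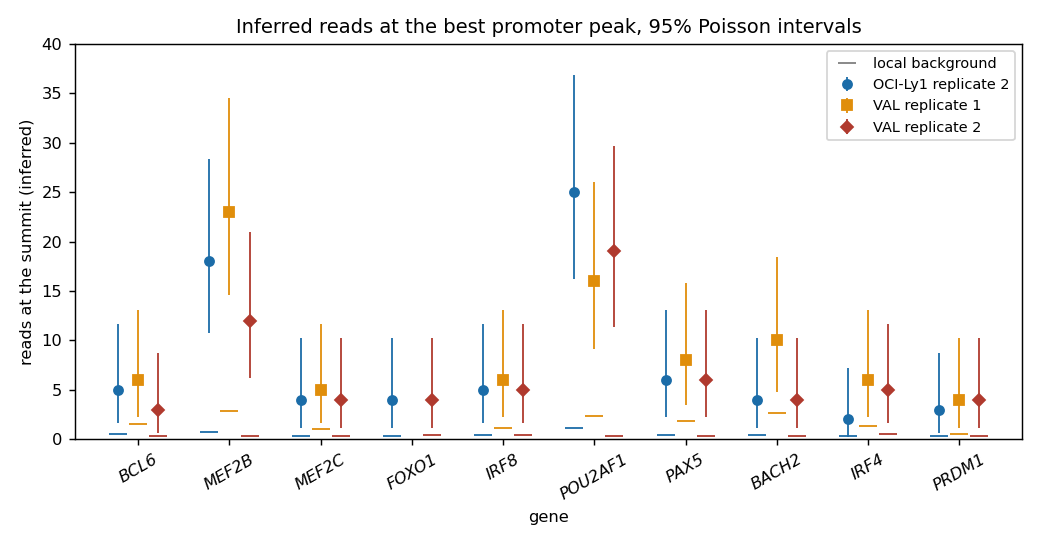
Inferred reads at the summit of the best promoter peak are plotted for the 10 genes in each library, with vertical lines for exact 95% Poisson intervals and short horizontal marks for the local background. MEF2B and POU2AF1 have 12 to 25 reads, and for each of them the intervals of the libraries overlap. Of the other genes, only IRF4 had best peaks that overlapped, those of OCI-Ly1 and VAL-2. The other points of a gene belong to different places.

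The remaining 7 genes had no passing promoter peak. Their best -log10 q ran from 0.344 to 1.8 in OCI-Ly1, from 0.328 to 0.702 in VAL-1 and from 0.952 to 1.75 in VAL-2, with 2 to 5, 4 to 10 and 3 to 5 reads. A listed peak on its own carried little weight, since listed peaks covered 12.4 to 39.4% of the promoter windows of the 10 genes in OCI-Ly1, 0.0 to 8.27% in VAL-1 and 8.01 to 37.7% in VAL-2.

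BCL6 (chr3:187439165-187463513), the master repressor of the germinal centre, had a best -log10 q of 1.61 in OCI-Ly1, 0.328 in VAL-1 and 0.952 in VAL-2, with 5, 6 and 3 reads. Its 3 best peaks did not overlap each other. MEF2C (chr5:88012934-88200074), a MEF2 factor needed for B cell proliferation after receptor signals, had values of 1.61, 0.382 and 1.71 with 4, 5 and 4 reads. FOXO1 (chr13:41129804-41240778), the factor of the dark zone of the germinal centre, had 1.61 with 4 reads in OCI-Ly1, no listed peak in VAL-1 and 1.17 with 4 reads in VAL-2. The best peaks of MEF2C and of FOXO1 did not overlap between libraries either, so the reads of each gene belong to different places.

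IRF8 (chr16:85932722-85956212), an interferon regulatory factor that works with the ETS factor PU.1 in germinal centre B cells, came closest to the threshold among the 7 in OCI-Ly1 and VAL-2. Its values were 1.8, 0.495 and 1.75, with 5, 6 and 5 reads. BACH2 (chr6:90636247-91006562), which represses PRDM1, had 1.22, 0.702 and 1.71, the middle value resting on 10 reads over a background of 2.68. Neither gene had best peaks that overlapped between libraries.

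The exit factors were under the threshold as well. IRF4 (chr6:391739-411443), which at a high level drives plasma cell fate, had 0.344 in OCI-Ly1, 0.444 in VAL-1 and 1.71 in VAL-2, with 2, 6 and 5 reads. In OCI-Ly1 5.41% of protein coding genes had a strictly lower value, against 70.2% and 52.3% in the VAL libraries. Genes with an equal value are left out of these shares. Many genes share the value of IRF4 in OCI-Ly1 and in VAL-2, so the shares do not set IRF4 apart from them. PRDM1 (chr6:106441338-106557814), whose product BLIMP1 shuts down the B cell programme, had 0.873, 0.495 and 1.71 with 3, 4 and 4 reads. IRF4 was the sole gene under the threshold whose best peaks overlapped between 2 libraries. They were those of OCI-Ly1 and VAL-2, with summits 274 and 319 bp upstream of its first TSS. How often best peaks overlap over all protein coding genes was not counted, here or above.

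**Figure D3:**
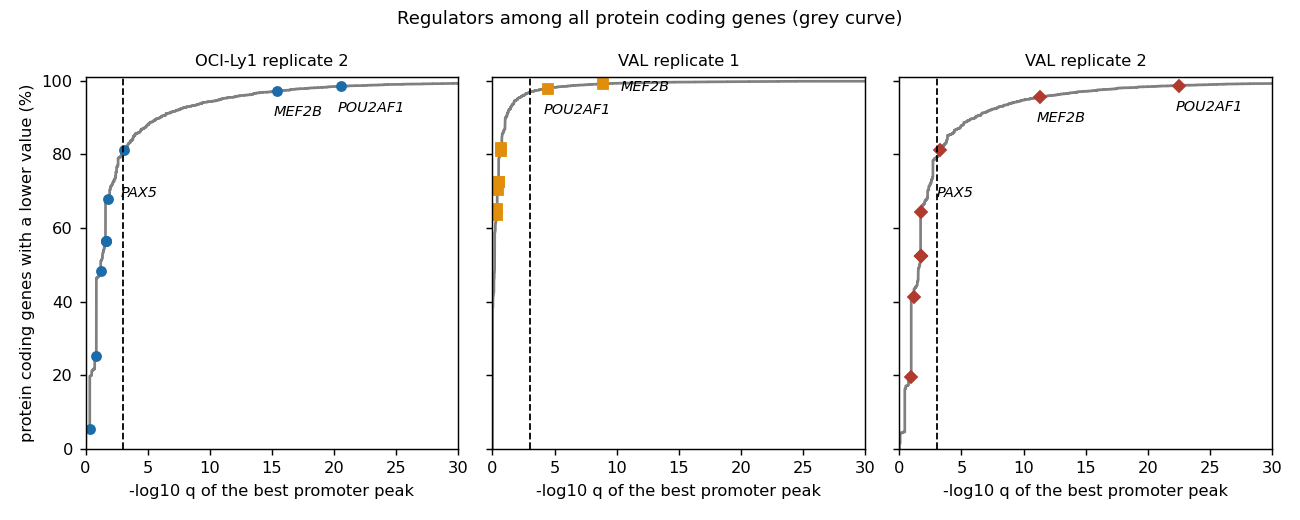
The grey curve gives, for each library, the percentage of the 20136 protein coding genes at or below each best promoter -log10 q. Genes without a listed peak stand at 0, the axis ends at 30, and the dashed line marks 3. Points are the 10 genes at the percentage with a strictly lower value, so ties put points under the curve. POU2AF1 and MEF2B lie above 95.6% of genes or more in each library and PAX5 above 81.0 to 81.3%. All others lie lower except BACH2 in VAL-1, at 81.8%.

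Inside the 10 genes, which span 1203.4 kb in all, 6 passing peaks were centred in OCI-Ly1, 3 in VAL-1 and 4 in VAL-2, again all in MEF2B, POU2AF1 and PAX5. This makes 0.499, 0.249 and 0.332 per 100 kb, beside 0.249, 0.0371 and 0.307 per 100 kb over all protein coding genes. Of these peaks, 2, 1 and 3 were over 3 kb from every TSS of any gene. The shared MEF2B promoter site counts as inside in VAL-1 alone. In OCI-Ly1 and VAL-2 its centre lay 48 and 35 bp outside the gene. Promoter and inside peaks together formed 11 sites, of which 3 passed in all 3 libraries and 8 in 1 library, 4 of them in OCI-Ly1 and 4 in VAL-2. Of these 8 sites, 7 had a -log10 q under 4. The split of sites between libraries was not counted for other genes.

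The highest value of any site was found at the 3′ end of MEF2B. Its -log10 q was 10.1 in OCI-Ly1, 7.71 in VAL-1 and 28.0 in VAL-2, the last being that highest value. The reads were 11 (5.49 to 19.7), 18 (10.7 to 28.4) and 21 (13 to 32.1), with fold enrichments of 9.0, 6.69 and 17.1. The peaks spanned chr19:19256577-19257148, chr19:19256900-19257108 and chr19:19256564-19257245, and the summits fell within 45 bp of each other in an untranslated exon of MEF2B.

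This site was far from any promoter, at 24031 to 24076 bp downstream of the nearest MEF2B TSS, and the nearest TSS of any gene was that of TMEM161A, 7659 to 7704 bp from the summits. The CCGGAAG printed above, at 19256987 to 19256993 on the plus strand, was 6, 33 and 6 bp from the summits of OCI-Ly1, VAL-1 and VAL-2. It lay whole within 50 bp of the summit in all 3 libraries. MEF2B thus held a passing site at each end of the gene in all 3 libraries, as the map of the gene shows.

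POU2AF1 had 2 further passing peaks in OCI-Ly1. The stronger was intronic, at chr11:111317263-111317576, with a -log10 q of 13.1 and 17 reads (9.9 to 27.2) over a background of 0.816. The same place was listed at 1.77 with 8 reads (3.45 to 15.8) in VAL-1 and at 2.27 with 7 reads (2.81 to 14.4) in VAL-2. The call was made in OCI-Ly1 alone, and the intervals overlap. A difference between lines was not tested, as the read totals are unknown. Its centre was 3287 bp from the nearest POU2AF1 TSS, just outside the promoter window. The TSS of the unnamed gene ENSG00000255093 was 1800 bp from the OCI-Ly1 summit. The stretch printed above opens with a run of ca repeats before its TTCC matches. The OCI-Ly1 summit, at 111317375, fell within this run, 25 bp from the nearest TTCC, and the part of the repeats in the peak was not tested. The weaker peak, at chr11:111290046-111290587, had a -log10 q of 3.51 with 9 reads.

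The other peaks were near the threshold. An intronic peak of MEF2B had 3.09 with 6 reads in OCI-Ly1. In PAX5, VAL-2 had 2 intronic peaks at 3.59 and 3.79 with 6 and 7 reads. The second of these was 20403 bp downstream of the nearest PAX5 TSS, and was listed in the other libraries at 1.61 (OCI-Ly1) and 0.757 (VAL-1).

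**Figure D4:**
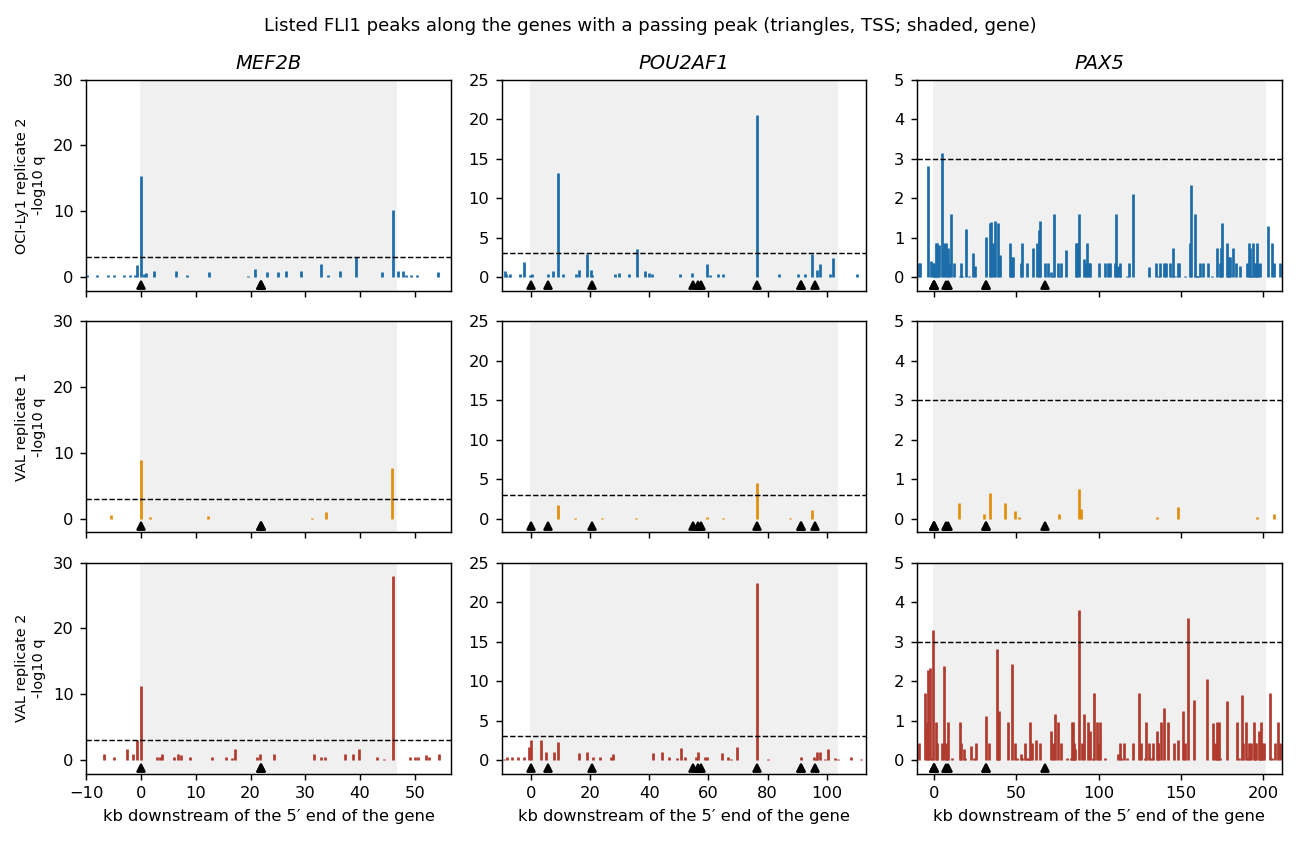
Each vertical line is a listed FLI1 peak, with its -log10 q as height, against the distance in kb downstream of the 5′ end of MEF2B, POU2AF1 and PAX5 in the 3 libraries; triangles are TSS, grey marks the gene and the dashed line the threshold of 3. MEF2B has tall peaks at both ends of the gene in every library and POU2AF1 one at an internal TSS, while PAX5, drawn on a scale that ends at 5, has only peaks close to the threshold.

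Motifs were sought on both strands within 50 bp of the summit of each best promoter peak that passed, and a match counted only where it lay whole in this window. CCGGAAA or CCGGAAG was present at 1 of 3 in OCI-Ly1 (PAX5), 0 of 2 in VAL-1 and 1 of 3 in VAL-2 (MEF2B). Over all passing promoter peaks the shares were 44.7%, 53.5% and 37.7%, and 7.96% over windows of the same length centred on protein coding TSS. GGAA, which these motifs contain, was present at all 3, 2 and 3 peaks, beside 86.4%, 89.0% and 83.6% of passing promoter peaks and 66.0% of TSS windows. The octamer ATGCAAAT, which POU2F1 and POU2F2 read, the ETS and IRF composite (GGAA and GAAA with 2 bases between them) and the IRF repeat (GAAA and GAAA with the same gap) were found at none of them. Across the passing promoter peaks of the 3 libraries their shares were 0.161 to 0.208%, 1.04 to 2.42% and 0.644 to 0.91%, and in TSS windows 0.293%, 0.806% and 1.15%.

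A pair of wider lists sets the 10 genes beside their kin. Of 13 relatives from the same families, 7 passed in OCI-Ly1, 1 in VAL-1 and 2 in VAL-2, which is 53.8%, 7.69% and 15.4%. The shares of all protein coding genes were 19.0%, 3.14% and 20.9%. In both lines 2 of the 13 passed, which is 15.4%, beside 12.6% of all protein coding genes. MEF2A, the ubiquitous relative of MEF2B and MEF2C, had the highest value in every library, 11.1 in OCI-Ly1, 10.7 in VAL-1 and 22.5 in VAL-2. Its summits were 20 to 21 bp upstream of a TSS of its own, with no other gene within 3 kb, whereas MEF2C had 1.71 at most. PRDM2, a relative of PRDM1, passed in both lines, with 9.97 in OCI-Ly1, 0.914 in VAL-1 and 6.56 in VAL-2. IRF2, IRF3, IRF5, IRF7 and MEF2D passed in OCI-Ly1 alone. Some of these peaks also had a TSS of another gene within 3 kb, as that of IRF3 did with BCL2L12.

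Of 16 partners and circuit genes, such as octamer factors, PU.1 family factors, corepressors of BCL6 and plasma cell genes, 9 passed in OCI-Ly1, 0 in VAL-1 and 8 in VAL-2, which is 56.2%, 0.0% and 50%. The medians of the best -log10 q were 3.86, 0.379 and 2.82. Of the 16, 7 passed in both lines, which is 43.8%, beside 12.6% of all protein coding genes and 14.9% of those with 3 or more TSS. Among the 7 were BCOR and NCOR1, corepressors that BCL6 recruits, and POU2F1 and POU2F2, with which the product of POU2AF1 works. The passing peaks of NCOR1 also lay within 3 kb of a TSS of PIGL. The BCOR summits were at different places, 2156 bp (OCI-Ly1) and 1470 bp (VAL-2) downstream of its TSS. SPIB, an ETS factor of B cells, had the highest value in OCI-Ly1 and in VAL-1, at 10.7 and 1.87, and reached 7.39 in VAL-2. Its peak also lay within 3 kb of a TSS of POLD1. POU2F1 had the highest value in VAL-2, 9.11, beside 5.97 in OCI-Ly1 and 1.3 in VAL-1. The shares of all protein coding genes were 19.0%, 3.14% and 20.9%, and the lists were not tested against them.

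**Figure D5:**
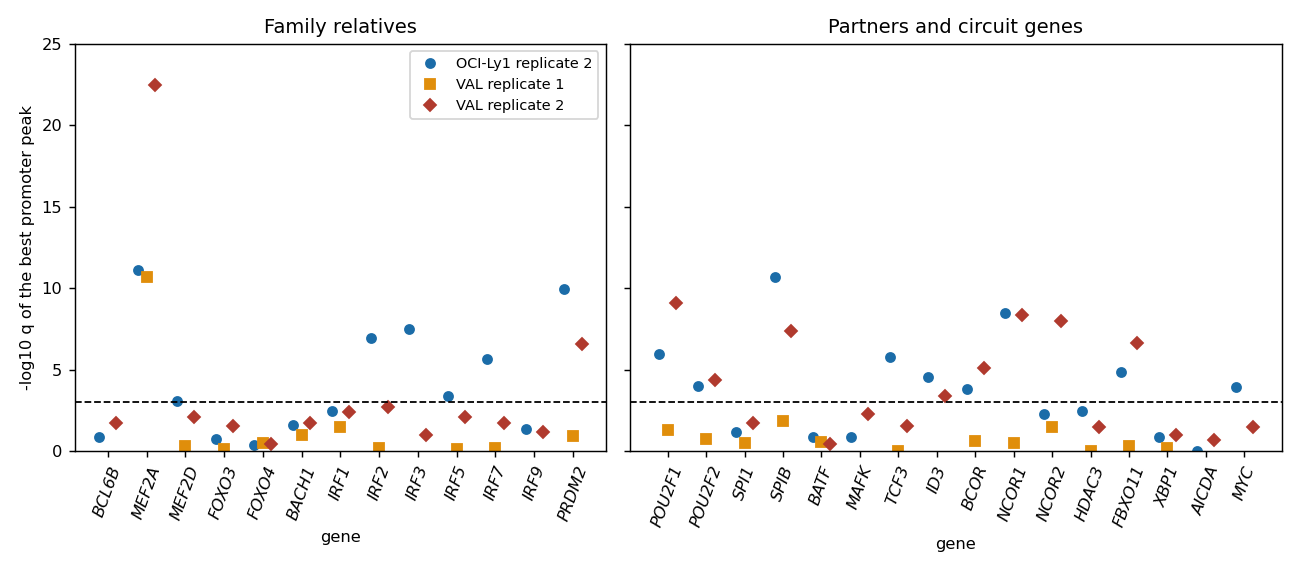
The best promoter -log10 q is plotted for 13 family relatives (left) and 16 partners and circuit genes (right) in the 3 libraries, with the threshold of 3 dashed and genes without a listed peak left blank in that library. MEF2A is above 10 in all 3 libraries, and the partners pass in OCI-Ly1 and VAL-2 but never in VAL-1, where the highest is SPIB at 1.87.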

How the data were processed

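FLI1 ChIP-Seq peak lists of OCI-Ly1 and VAL were analysed, 1 list per library (OCI-Ly1 is replicate 2 of that line, VAL-1 and VAL-2 are the replicates of VAL), each deposited by the authors with 10 columns and no header. The paper's methods give bowtie2 mapping to GRCh37, SAMtools filters (unique reads, mapping quality of 10 or more, no duplicates) and HOMER peaks at an FDR of 0.001, whereas the submitters' processing notes name hg19, CASAVA 1.4 and BWA. The lists have the layout of MACS2, and their caller, control and settings are not given in the sources used here. The deposited fold enrichment is a ratio of the summit pileup to the local background, and the deposited −log10 p-value and −log10 q-value belong to the summit. The deposited score column was not used. Input DNA samples were not analysed here.

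The members and gene lists were chosen with earlier results of these data known. A peak passed at a −log10 q of 3 or more. Reads and background were solved from a fold of (reads + 1) / (background + 1) and the Poisson p-value, which recovered 2965 of 2965 simulated peaks, and given with exact 95% Poisson intervals. Depth is known only through these reads, so lists are described by counts and medians beside all protein coding genes, with no test between lines. Named were the 10 members, and of the other lists the genes passing in all 3 libraries and the highest per library, of the peaks inside members those overlapping between lines and the highest per library, and of neighbours those with a TSS within 3 kb of a passing member promoter peak. Other genes of the wider lists and single intragenic peaks in the text were added after their values were seen. Sequences come from GRCh37. The sequence of 1 site is not reported here. Alternatives covered the threshold, the fold, the promoter definition, left-out libraries, the motif and its window. Tools were samtools 1.23.1 and pysam 0.24.0 for sequences, scipy 1.17.1 for intervals, matplotlib 3.10.9 for figures, and pandas 2.3.3 with numpy 2.4.6 under python 3.11.15.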

Additional observations from a re-analysis of the deposited data

How the results depend on the processing

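Of 81 alternative values, 68 stayed close to the reported value (counts within 1.5 times it), 13 moved and none reversed. By this rule a fall from 3 genes to 2 counts as close. The 68 also include each ranking of a gene's promoter peaks by fold enrichment, which had little room to move. The total is thus no measure of how stable the short counts are. Ranking by fold enrichment chose another best promoter peak for BCL6 in VAL-2, with the same -log10 q of 0.952, and for no other gene. In VAL-1 the genes with a passing promoter peak went from 2 to 1 at a -log10 q of at least 5 (MEF2B) and to 1 with the closest TSS only (POU2AF1). MEF2B was lost with the closest TSS only in all 3 libraries. PAX5 was lost in OCI-Ly1 at a -log10 q of at least 5, with a promoter of 1 kb and with TSS of protein coding transcripts, and in VAL-2 at a -log10 q of at least 5. The 3 genes passing in both lines were 2 to 3 when VAL-1 or VAL-2 was left out, PAX5 being lost without VAL-2. The count was 3 with the intervals of OCI-Ly1 replicate 1, a setting added after the data were seen. That setting is among the 68 but could not change the count. No passing interval of that list lay on a chromosome of the genes followed, so no conclusion is drawn from it. Passing peaks inside the genes numbered 13 in OCI-Ly1 and 12 in VAL-2 at a -log10 q of at least 2, 3 and 2 at a -log10 q of at least 5, and 2 in OCI-Ly1 and 1 in VAL-1 where only peaks over 3 kb from every TSS counted. With 100 bp in place of 50 bp around the summit, CCGGAAA or CCGGAAG was present at 2 of 3 best promoter peaks in OCI-Ly1. In VAL-1 it was present at 1 of 2 and in VAL-2 at 1 of 3. Over all passing promoter peaks the shares with 100 bp were 52.1%, 59.4% and 45.1%. GGAA within 50 bp in its place was present at 3 in OCI-Ly1, 2 in VAL-1 and 3 in VAL-2. No paired analysis was possible because OCI-Ly1 replicate 1 gave no usable list and no test between lines was made. The fewest inferred reads of any passing peak were 6 in OCI-Ly1 and VAL-2 and 8 in VAL-1. The most common local background was 0.283 reads in OCI-Ly1, 0.526 in VAL-1 and 0.278 in VAL-2. The part of depth or background in these minimum values was not tested.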

Other observations

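Within 100 kb of the 10 genes, outside the genes and their promoters, 13 sites passed in at least 1 library. They lay next to 5 of the genes (IRF4, PAX5, MEF2C, IRF8 and MEF2B). Of the 13 sites, 4 passed in both lines and 1 in all 3 libraries. Flanks of all protein coding genes were not counted, so these numbers have no background beside them. The one in all 3 libraries was upstream of IRF4, 19720 to 20208 bp before its first TSS and with no TSS within 3 kb. Its -log10 q was 5.17 in OCI-Ly1, 13.1 in VAL-1 and 9.27 in VAL-2, with 15 (8.4 to 24.7), 41 (29.4 to 55.6) and 15 (8.4 to 24.7) inferred reads. The local background there was 2.05, 7.03 and 1.02 reads, against most common values of 0.283, 0.526 and 0.278 in these libraries, and the summits were spread over 488 bp. Around the summit of VAL-1 the sequence is made of repeats with no GGAA within 50 bp, and the part of these features in the peak was not tested.
IRF4 upstream site, GRCh37 chr6:371969-372069, plus strand, no capitals as no motif is present: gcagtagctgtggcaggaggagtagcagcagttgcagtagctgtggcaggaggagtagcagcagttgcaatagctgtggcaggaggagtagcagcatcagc

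A second IRF4 upstream site, at chr6:356742-357074, passed in VAL-2 alone with a -log10 q of 12.3 and 15 reads (8.4 to 24.7). OCI-Ly1 listed 4 reads (1.09 to 10.2) over a background of 0.922 at a -log10 q of 0.41, and VAL-1 listed no peak. The read intervals of the lines overlap slightly. GGAA was present 18 bp from the VAL summit.

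The site with the highest value in the flanks was 67.1 to 67.3 kb downstream of PAX5, with a -log10 q of 19.1 in OCI-Ly1 (16 reads, 9.15 to 26.0), 1.95 in VAL-1 (11 reads, 5.49 to 19.7) and 13 in VAL-2 (14 reads, 7.65 to 23.5). The TSS of ENSG00000288571 was 498 to 581 bp from its summits. On the other side of PAX5, a site at the promoter of ZCCHC7 and ENSG00000233242 passed at 5.19 in OCI-Ly1 and 8.41 in VAL-2, and was listed at 0.495 in VAL-1. Next to IRF8, a site at the shared promoter of COX4I1 and EMC8 passed at 3.99 in OCI-Ly1 and 11.3 in VAL-2, and was listed at 0.543 in VAL-1. The last pair of sites lies at promoters of other genes, and no data here tie them to PAX5 or IRF8.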
